A study of Mus musculus with 2 samples.

Results

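The olfactory receptor (OR) gene cluster of mouse chromosome 2 was examined against a map of chromatin boundaries in mature olfactory sensory neurons. Its members were the genes of the GENCODE M21 annotation whose names start with Olfr and that lie at 85330779 to 90403897 on chromosome 2 (GRCm38), pseudogenes included. There were 287 of them, of 1407 Olfr genes in the annotation. By annotated type, 227 were protein-coding, 45 unprocessed pseudogenes, 12 polymorphic pseudogenes and 3 transcribed unprocessed pseudogenes. Of the members, 100 were on the plus strand and 187 on the minus strand.

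OR genes encode odorant receptors, which couple to G proteins in the cilia of olfactory sensory neurons. Each mature neuron expresses 1 allele of 1 OR gene, while the other OR genes lie in silent heterochromatin whose clusters gather in the nucleus. OR genes arose largely by tandem duplication, so that neighbours are often close relatives. Intergenic enhancers bound by Lhx2, Ebf and the adaptor Ldb1 lie in OR clusters and act on OR genes. Boundaries are places where contacts between the DNA on either side are depleted. They divide chromosomes into contact domains, and many in mammals hold CTCF, a DNA-binding protein that stops cohesin.

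The map came from in situ Hi-C, which ligates DNA ends that were close together in crosslinked nuclei after cutting with DpnII. There was 1 group, neurons with no treatment sorted by GFP from the olfactory epithelium of adult OMP-GFP mice of strain 129P2/OlaHsd, of mixed sex, with 2 biological replicates of 3000000 and 1500000 cells. In OMP-GFP mice the promoter of Omp, a marker of mature olfactory neurons, drives the fluorescent protein. Contacts of both replicates had been pooled into 1 list of 8058 boundaries, so no value here has a replicate error and no test between samples was possible. The labelled cell type could not be checked against marker genes, since the list holds no expression values, and the depth of contacts behind each boundary is unknown. A boundary here is a 5 kb interval with a strength score, from 0.2 to 4.32 in the whole list, and a class. The authors' class Strong holds scores from 0.5 upward and Weak those below.

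The sequences of the cluster that the boundary results refer to are printed here, read from GRCm38.p6 on the strand of the match or gene. The first set shows the 2 matches to the CTCF core consensus inside the cluster and then the nearest match beyond its right end, with the 14 bases of the core in capitals and 6 bases to each side. The first lies at chr2:85725950-85725963, the second at chr2:88356476-88356489 and the last at chr2:90474917-90474930, all on the plus strand.
Match in subdomain 2: atcaggCCAGTAGATGGCAGcatgag
Match in subdomain 7: taatgtCCACTAGGTGGCAGaataac
Match at the boundary in Ptprj: ctgtgtCCACTAGGGGGCAGtagcaa

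The second set shows the 250 bases upstream of Olfr1080 and Olfr1238, the 2 members whose annotated start fell in the same 5 kb bin as a boundary. Both genes are on the minus strand, and the stretches lie at chr2:86558236-86558485 and chr2:89409677-89409926. Capitals mark matches on either strand to the homeodomain core TAATNA, the kind of site Lhx2 binds, and to the TATA box TATAAA.
Olfr1080: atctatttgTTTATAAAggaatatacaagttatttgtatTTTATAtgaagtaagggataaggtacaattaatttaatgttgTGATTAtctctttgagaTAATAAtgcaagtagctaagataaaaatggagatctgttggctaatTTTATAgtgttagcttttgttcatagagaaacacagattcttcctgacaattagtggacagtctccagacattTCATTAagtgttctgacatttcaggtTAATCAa
Olfr1238: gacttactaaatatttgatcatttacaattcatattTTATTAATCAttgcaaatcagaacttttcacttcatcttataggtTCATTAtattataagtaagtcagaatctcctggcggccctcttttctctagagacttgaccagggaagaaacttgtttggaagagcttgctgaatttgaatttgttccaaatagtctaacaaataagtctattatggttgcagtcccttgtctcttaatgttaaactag

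Inside the cluster the list held 10 boundaries, or 1.97 per Mb, against 11 in the 1.5 Mb flanks to each side, or 3.67 per Mb. The rest of chromosome 2 held 575 boundaries at 3.38 per Mb and the whole list 3.15 per Mb of callable sequence. Single chromosomes ranged from 2.71 per Mb on chromosome 14 to 3.66 per Mb on chromosome 11. The cluster lay below that range, as did the OR clusters of 123 genes on chromosome 9 (2.42) and 80 genes on chromosome 7 (2.25). Windows this short can vary more than whole chromosomes, and no interval was computed for the density of the chromosome 2 cluster. Of the boundaries inside, 2 were Strong (20%, exact 95% interval 2.52 to 55.6), against 6 of 11 in the flanks (54.5%, 23.4 to 83.3) and 50.8% of the whole list. The interval for the cluster includes the share of the whole list, and such intervals cover counting error only. Median strength was 0.345 inside, 0.5 in the flanks and 0.509 over the whole list. A boundary of the left flank, with rank 4092 in the list, only just reached the class Strong at 0.5.

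**Figure D1:**
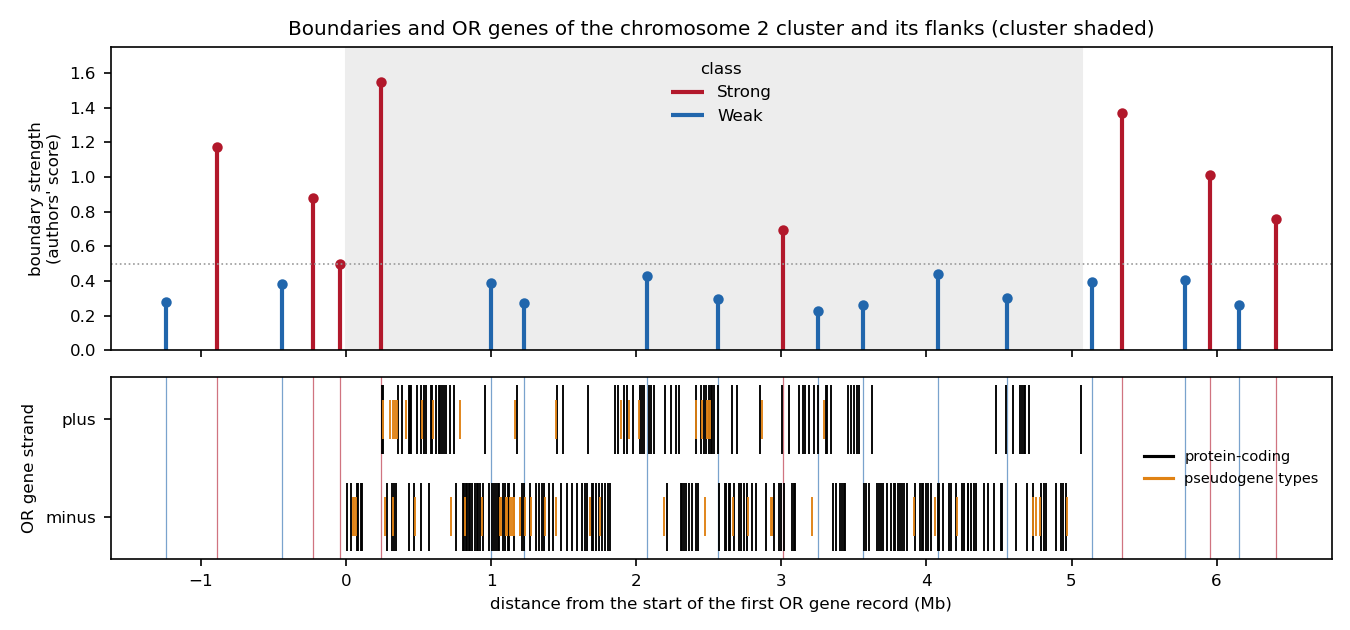
Boundary strength (upper panel, authors' score; stems are boundaries, red Strong and blue Weak; dotted line at 0.5) and OR gene starts by strand (lower panel) along the chromosome 2 cluster, shaded, and its flanks, by distance in Mb from the start of the first gene record. The Strong boundaries of 1.55 and 0.694 are the 2 red stems in the shaded span, and the 8 others in it are Weak.

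The strongest boundary of the cluster, with a strength of 1.55, stood at chr2:85570001-85575000 and ranked 674 among the 8058 of the list. It lay in the largest stretch without an OR gene record, 136 kb between Olfr995, on the minus strand, and Olfr996, on the plus strand. The start of Olfr996 was 5 kb away and that of Olfr995 was 130 kb away. At no other of the 10 boundaries did the neighbours face apart. The other Strong boundary, of 0.694 and rank 2983, stood at chr2:88340001-88345000. It covered coding and untranslated parts of both Olfr1176 and Olfr1177-ps, which face each other and whose starts lay 5 kb from it.

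The 8 Weak boundaries had strengths from 0.224 to 0.441. The highest, of 0.441 at chr2:89405001-89410000, covered the start and coding sequence of Olfr1238, with Olfr1235-ps1 to its left. The next, of 0.431 at chr2:87405001-87410000, lay between Olfr1122 and Olfr1123 and overlapped no gene. Further Weak boundaries overlapped OR records at chr2:86330001-86335000 (0.389, in coding sequence of Olfr1054, with Olfr1053 to the left) and at chr2:86555001-86560000 (0.27, over the start and untranslated exon of Olfr1080, with Olfr1079 to the left). The same held at chr2:87895001-87900000 (0.296, in coding sequence of Olfr1153, with Olfr1154 to the right) and chr2:89880001-89885000 (0.3, in coding sequence of Olfr1257, with Olfr1258 to the right). The 2 weakest lay between genes, at chr2:88580001-88585000 (0.224, between Olfr1188 and Olfr1189) and chr2:88890001-88895000 (0.26, between Olfr1206 and Olfr1208).

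At the ends, the boundary next to the first member, Olfr987, was a Strong one of 0.5 at chr2:85285001-85290000, 50 kb from the start of that gene. Its rank of 4092 was the lowest of the 4092 Strong boundaries, so its class rests on the cutoff. The one next to the last member, Olfr1274-ps, was a Weak one of 0.394 at chr2:90470001-90475000, 75 kb from its start and in Ptprj, which encodes a receptor tyrosine phosphatase. In the flanks, 6 of 11 boundaries had a coding gene start within 20 kb. They were those of 1.17 near Calcrl, a neuropeptide receptor gene, 0.38 near Rtn4rl2, a Nogo receptor relative, 1.37 in the bin of the start of Nup160, a nuclear pore gene, 0.405 near Mybpc3, a cardiac myosin-binding protein gene, 1.01 near Arfgap2, which acts in Golgi traffic, and 0.755 near Ambra1, an autophagy gene. None of the 10 boundaries inside had the start of a coding gene without an Olfr name within 20 kb, but only 7 such genes lay inside. With OR genes counted, all 10 had a gene start within 20 kb, as did 95.9% of all 5 kb bins of the span. The share of flank bins near a coding start was not computed, so the counts inside and in the flanks cannot be compared.

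The boundaries, together with those at the ends, divided the cluster into 11 subdomains with a median length of 475 kb, from 225 to 850 kb. The 9 domains of the flanks had a median of 210 kb (170 to 450 kb), and the 7968 spacings of the whole list one of 260 kb. Of the subdomains, 9 were longer than 260 kb. The longest, of 850 kb, was matched or exceeded by 2.23% of all spacings, and the next, of 760 kb, by 3.33%. In other large OR clusters the longest domain ran from 470 kb on chromosome 10 to 985 kb on chromosome 9. Their median domains ran from 207.5 kb on chromosome 19 to 330 kb on chromosome 9. A subdomain held between 9 and 59 OR genes, with a median of 23.

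Subdomain 1, from Olfr987 to Olfr995, was 285 kb long and held 9 OR genes, all on the minus strand. The 7 of them with a MOR name, the older classification of mouse receptors by sequence family, were all of MOR203, which occurred nowhere else in the cluster. Subdomain 2, from Olfr996 to Olfr1053, held the most members, 59 in 760 kb, from 18 families, with MOR175 the largest at 9 genes. Subdomain 3, from Olfr1054 to Olfr1079, was the shortest, at 225 kb, and the most crowded, with 23 OR genes or 10.2 per 100 kb. It also had the highest share of pseudogenes, 11 of 23 (47.8%).

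Subdomain 4, from Olfr1080 to Olfr1122, was the longest and held 44 OR genes of 10 families, led by MOR264 with 10. Subdomain 5, from Olfr1123 to Olfr1153, held 32 in 490 kb, of which 14 were MOR177 and 11 MOR264. In subdomain 6, from Olfr1154 to Olfr1176, 18 of 25 OR genes in 445 kb were MOR174. The Strong boundary of 0.694 ended it. Subdomain 7, from Olfr1177-ps to Olfr1188, held 11 in 240 kb, and subdomain 8, from Olfr1189 to Olfr1206, 16 in 310 kb, both mainly of MOR225 and MOR230.

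Subdomain 9, from Olfr1208 to Olfr1235-ps1, held 26 OR genes in 515 kb, 25 of them on the minus strand and 17 of them MOR233. Subdomain 10, from Olfr1238 to Olfr1257, held 21 in 475 kb, with 13 of MOR231 and 1 pseudogene. Subdomain 11, from Olfr1258 to Olfr1274-ps, held 21 in 590 kb, and its 3.56 OR genes per 100 kb came close to the 3.16 of subdomain 1. The outer subdomains were thus the sparsest, and subdomain 3 had the greatest density.

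**Figure D2:**
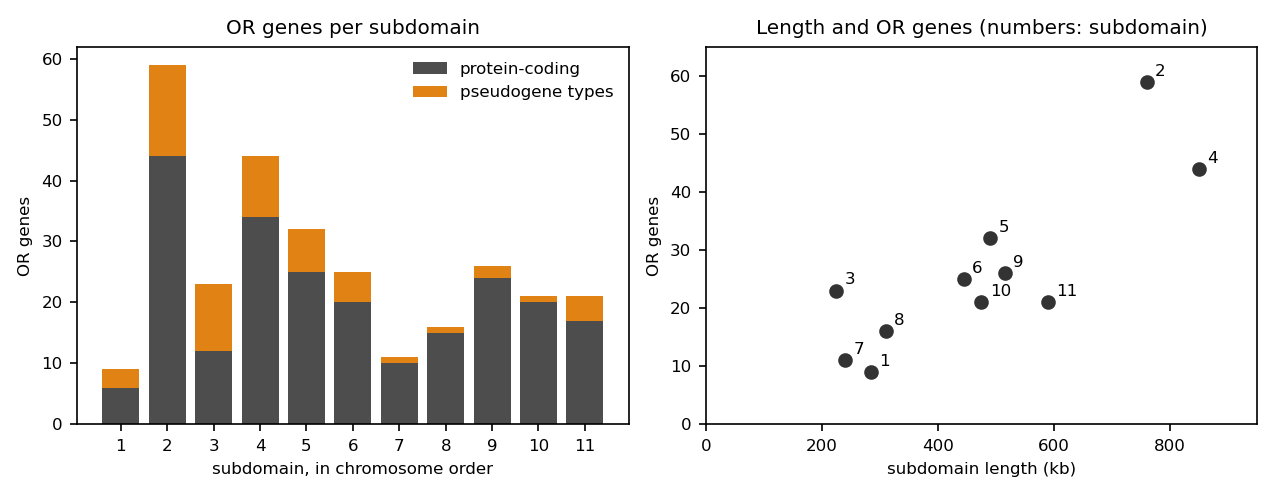
OR genes per subdomain in chromosome order, coding in grey and pseudogene types in orange (left), and OR genes against subdomain length in kb, each point a subdomain with its number (right). Subdomain 2 holds 59 OR genes and subdomain 4 is the longest at 850 kb, while subdomain 3 holds 23 in 225 kb.

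Pseudogenes were spread unevenly along the cluster. Between the 2 Strong boundaries 48 of 183 OR genes had a pseudogene type (26.2%, exact 95% interval 20 to 33.2). To the right of the boundary of 0.694, from Olfr1177-ps on, it was 9 of 95 (9.47%, 4.42 to 17.2). To the left of the boundary of 1.55 it was 3 of 9 (33.3%, 7.49 to 70.1). By subdomain the share lay between 20 and 47.8% in subdomains 1 to 6, and between 4.76 and 19% in subdomains 7 to 11. In 10 members a symbol with -ps stands beside a coding type, as in Olfr1177-ps, and they count as coding in these shares. Counted by symbol as pseudogenes, they bring the share to 15 of 95 (15.8%, 9.12 to 24.7) right of the boundary of 0.694 and to 52 of 183 (28.4%, 22.0 to 35.5) between the Strong boundaries, whose intervals overlap. Subdomain 7 then has 3 of 11 (27.3%) and subdomain 11 has 5 of 21 (23.8%), both within the range of subdomains 1 to 6. These stretches were compared after the values had been seen. Neighbouring genes share their history of duplication and are not independent.

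Inside lay 7 coding genes whose names do not start with Olfr. RefSeq lists 4 of them as OR genes, so they are receptors by that annotation although the rule by name leaves them out. They were Gm13757 (Olfr1182), Gm13762 (Olfr1213) and Gm13769 (Olfr1565), matched by name, and Gm13723, which overlaps Olfr1096. Their closest members were 94.8% identical for Gm13757 (Olfr1181), 79.1% for Gm13762 (Olfr1228) and 77.0% for Gm13723 (Olfr1099), and Gm13769 had no difference from Olfr1506 over the aligned residues. They lay in subdomains 7, 9, 11 and 4. The other 3 were 4833423E24Rik in subdomain 1, 55 kb from the boundary of 1.55, which RefSeq lists as Fads2b, and Pramel7 and Pramel6 in subdomain 5. These Pramel genes belong to a leucine-rich repeat family active in early embryos and lay 90 and 100 kb from the boundary of 0.431.

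Gene starts were not crowded at the boundaries. Of the 287 OR genes, 22 had a boundary within 20 kb of the start (7.67%, exact 95% interval 4.87 to 11.4), against 21.2% of all coding genes and 145 of 1120 other OR genes (12.9%, 11.0 to 15.1). The interval of the cluster lies below the share of coding genes and overlaps that of the other OR genes. Such intervals treat genes as independent. The 22 members, however, lay near only 10 boundaries, with up to 3 members at the same one, so the interval is too narrow to rank these shares. The share also depends on how many boundaries a region has, and the cluster has few. Of the 22, 19 were coding and 3 were pseudogenes, and 6 were near a Strong boundary. The median member started 120 kb from the nearest boundary, 74 members (25.8%) started over 200 kb away, and Olfr1100 was the farthest at 420 kb.

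Counted the other way, 8 of the 10 boundaries had an OR gene start within 5 kb (80%, 44.4 to 97.5), against 67.8% of all 5 kb bins of the span. Within 20 kb it was 10 of 10, against 95.9% of the bins, so the nearness of an OR gene to a boundary was about that of any place in the cluster. Besides Olfr1080 and Olfr1238, the starts within 5 kb were those of Olfr996, Olfr1054, Olfr1153, Olfr1176, Olfr1177-ps, Olfr1189 and Olfr1257. Neighbours lay on the same strand at 6 of 10 boundaries and faced each other at 3, against 75.2% and 12.2% of the 286 neighbouring pairs of the cluster. The gaps between OR records, 282 in number with a median of 9.13 kb, made up 71.6% of the span. Of the 10 boundaries, 4 had their midpoint in a gap and the others had it in an OR record. Those 4 were all in the 55 gaps over 20 kb, which make up 49.7% of gap bases.

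Families were used to ask whether a boundary separates relatives. A MOR name was found for 256 members, in 49 families, of which 37 had at least 2 genes in the cluster. Of these 37, 14 (37.8%) lay in more than 1 subdomain, and 23 lay in 1 subdomain, MOR233 with 17 genes being the largest of those. Neighbouring subdomains shared at least 1 family at 8 of the 10 boundaries. The exceptions were the boundary of 1.55, with MOR203 alone on the left and 18 families on the right, and the Weak boundary of 0.296, with 5 families on the left and 3 on the right.

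The largest family, MOR264, was cut by the boundary of 0.431 into 10 genes to the left and 11 to the right, and both neighbours of that boundary, Olfr1122 and Olfr1123, belong to it. MOR174, with 19 genes, lay on the left of the boundary of 0.694 with the exception of Olfr1177-ps, the next gene to its right. By name, MOR227 was spread the farthest, with 1 gene, Olfr1034, in subdomain 2 and 6 in subdomain 11. The closest relative of Olfr1034, however, was Olfr1036, 28.1 kb away, at 97.4% identity, and that gene is named MOR245. The place of Olfr1034 in MOR227, and so the spread of that family, is therefore doubtful. Across the 2 Strong boundaries only MOR174 and MOR227 occurred on more than 1 side, which is 5.41% of the 37 families. MOR227 counts there through Olfr1034 alone. Fewer boundaries divide fewer families wherever they lie, so this share cannot be set beside the 37.8% for all boundaries. Taken singly, the Strong boundaries had 0 and 1 families shared by their neighbouring subdomains, and the Weak ones had 0 to 3.

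**Figure D3:**
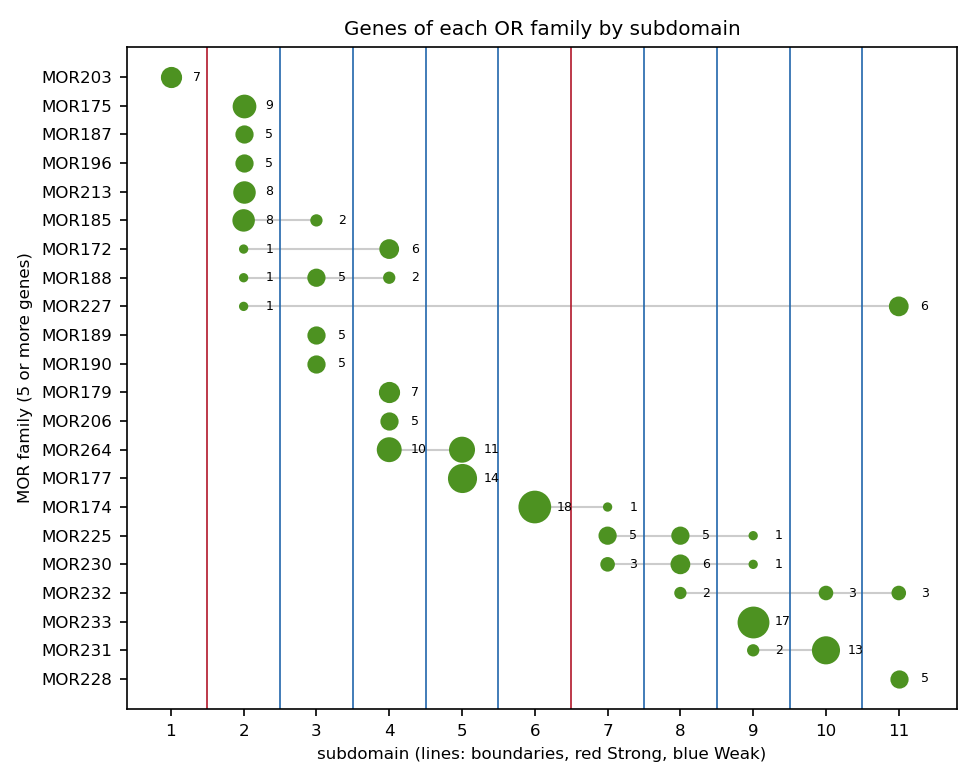
Genes of each MOR family with 5 or more members by subdomain; dot area and the number beside it give the count, and vertical lines are boundaries (red Strong, blue Weak). MOR264 lies on both sides of the Weak boundary between subdomains 4 and 5, while MOR203 lies in subdomain 1 alone.

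Protein identity was computed from the annotated coding sequences of the 227 coding members. Neighbouring coding genes across a boundary had a median identity of 64.3% (10 pairs, 46.0 to 84.2), and neighbours within a subdomain 70.2% (216 pairs, 37.7 to 98.4). The lowest across a boundary was that of Olfr995 and Olfr996, 46.0% at the boundary of 1.55. Olfr1206 and Olfr1208 followed at 50.7%, and Olfr1153 and Olfr1154 at 52.4%. Olfr1257 and Olfr1258, both MOR232, had the highest at 84.2%. Olfr1176 and Olfr1177-ps were 65.2% identical.

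Neighbours across a boundary also lay farther apart, by a median of 30.2 kb against 19.1 kb within subdomains. Among neighbours over 20 kb apart the median identity was 63.4% across a boundary (7 pairs, 46.0 to 84.2) and 72.5% within a subdomain (102 pairs, 37.7 to 98.4). The difference between medians was no smaller there, and the ranges overlapped. These pairs were not matched for distance, with a median of 39.1 kb across a boundary against 27.7 kb within a subdomain. The part of distance in the difference was not tested. Among all pairs, neighbours or not, the medians lay closer together. For pairs 25 to 50 kb apart the median was 63.9% across a boundary (14 pairs) and 64.6% within a subdomain (254 pairs). At 50 to 100 kb it was 58.4% (70 pairs) and 59.7% (446 pairs), and at 200 to 400 kb 53.5% (1138 pairs) and 51.2% (861 pairs). The quartiles of both kinds overlapped in every class. These distance classes were chosen after the data had been seen, and pairs that share a gene are not independent.

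The closest relative among the members lay in the same subdomain for 185 of the 227 genes (81.5%), and in a neighbouring one for 31 of the other 42. Median identity to that relative was 87.7%, at a median distance of 42.2 kb, and 47 genes had a relative over 95% identical. Over all 25651 pairs the median was 44.5%, and 11.0% of pairs shared a subdomain. That share takes no account of distance. Of neighbouring coding pairs, 216 shared a subdomain and 10 did not, and a share matched for distance was not computed.

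**Figure D4:**
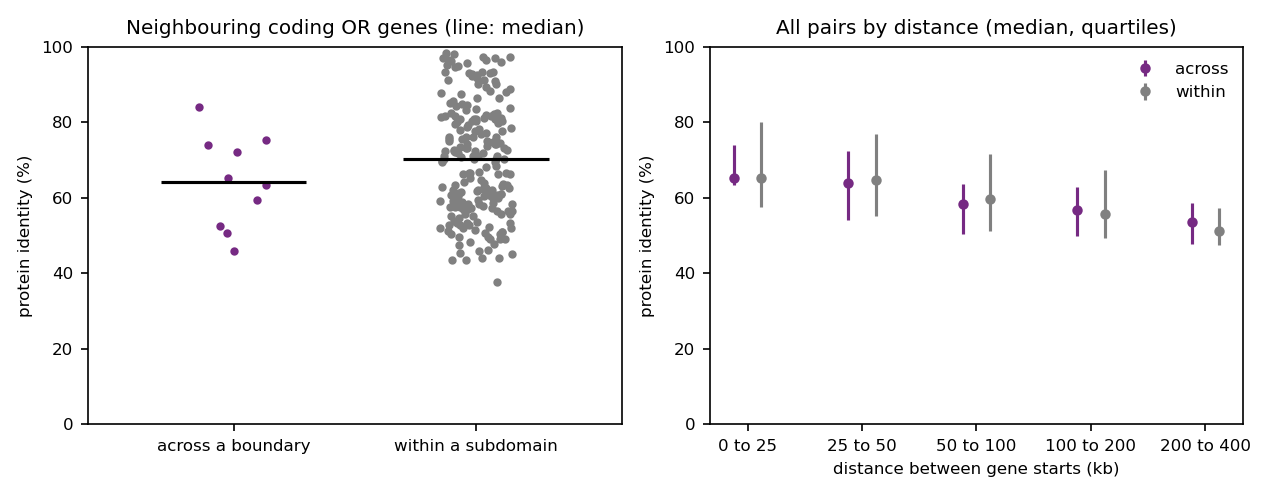
Protein identity in percent of neighbouring coding OR genes across a boundary and within a subdomain (left, points are pairs, line the median) and of all pairs by distance in kb between gene starts (right, median with quartiles). Medians are 64.3 and 70.2% on the left, while on the right the quartiles of both kinds overlap in every class.

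The 3 members with well known ligands lay 75 to 275 kb from a boundary, beside a median of 120 kb over all members. Olfr1019, a receptor for the fox odour compound TMT, lay in subdomain 2 at chr2:85839621-85845483, 275 kb from the boundary of 1.55. Its closest relative, Olfr1134, was only 59.0% identical and lay 1810 kb away. Olfr74, known for its response to ethyl vanillin, and Olfr73, a eugenol receptor, lay in subdomain 6 at 75 and 140 kb from the boundary of 0.296. They were each other's closest relative at 78.8% identity, 63.0 kb apart, and both belong to MOR174.

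CTCF motifs were sparse. The core consensus of 14 bases, searched on both strands with no mismatch, had 2 matches inside the cluster, or 0.394 per Mb, against 5 in the left flank, 3 in the right flank and 2.57 per Mb genome-wide. Low values were not particular to this cluster. Other large OR clusters had 0 per Mb on chromosome 9, 0.955 on chromosome 19, 1.04 and 2.25 on chromosome 7 and 3.27 on chromosome 10. Of the 10 boundaries inside, 1 had a match within 20 kb (10.0%, exact 95% interval 0.253 to 44.5), against 2 of 11 in the flanks and 21.9% of the whole list. That match, printed above for subdomain 7, lay 15 kb to the right of the boundary of 0.694. The match in subdomain 2 lay 155 kb from the boundary of 1.55, and the one in Ptprj lay in the bin of the boundary of 0.394. A match is a description of the letters and not of binding. The span had a GC content of 37.1%, against 42.1% on all of chromosome 2, and repeat-masked bases made up 47.8%, against 32.1%. DpnII sites stood at 2.68 per kb, against 2.48, with no undetermined base. The part of base composition, repeats and near-identical copies in the number of boundaries and matches was not tested.

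Upstream of the members, homeodomain cores were common. Of the 227 coding OR genes 180 (79.3%) had TAATNA on either strand in the 250 bases before the annotated start, against 584 of 908 other coding OR genes (64.3%) and 23.0% of all 21755 coding genes. TAATTA, a special case of it, was found in 30%, against 20.6% and 4.91%, and TATAAA in 43.6%, against 26.2% and 11.5%. The EBF core CCCNNGGG was found in 7.93%, against 15.3% of other OR genes and 13.8% of coding genes, and its longer form, with T before and A after it, in 0.881%, against 2.53% and 0.901%. All but CCCNNGGG and its longer form are rich in A and T, as is the cluster. With RefSeq starts, which mostly lay near the coding start, the share with TAATNA was much the same, at 78.45%. The share in windows of like base composition elsewhere in the cluster was not computed. These values therefore do not show an excess of sites before the members, and the share of all coding genes is not matched for composition. Of the 19 coding members near a boundary, 17 had TAATNA. The stretch before Olfr1080 held 4 such matches and 4 to TATAAA, and that before Olfr1238 held 3 and none.

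Beside the other large OR clusters, that of chromosome 2 was the longest and had the fewest boundaries per Mb. The 156 genes at chr7:102476579-105369355 had 8 boundaries at 2.77 per Mb, and the 123 at chr9:37708964-40190134 had 6 at 2.42 per Mb. The 91 on chromosome 19 had 4.3 per Mb, the 80 in the other cluster of chromosome 7 2.25 per Mb and the 67 on chromosome 10 3.27 per Mb. Strong shares ran from 16.7% on chromosome 9 to 44.4% on chromosome 19, against 20% on chromosome 2, and all their intervals overlapped. With 4 to 10 boundaries a cluster, these shares cannot be ordered.

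**Figure D5:**
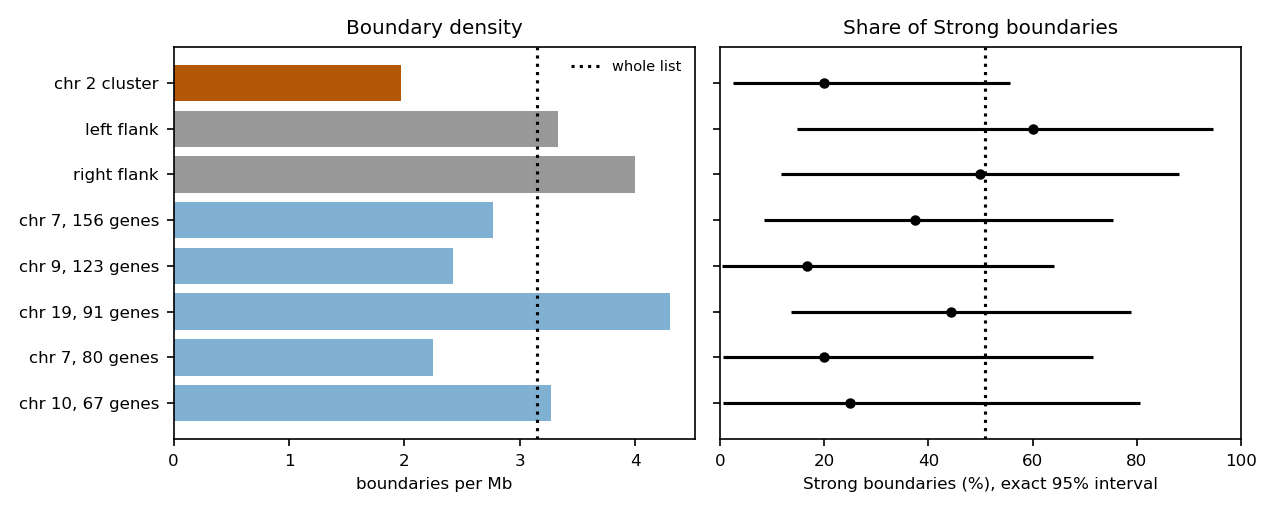
Boundaries per Mb (left; dotted line, whole list) and the percentage of Strong boundaries with exact 95% intervals (right; dotted line, whole list at 50.8%) for the chromosome 2 cluster, its flanks and 5 other OR clusters. The chromosome 2 cluster has the shortest bar at 1.97 per Mb, and all intervals of the right panel overlap.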

How the data were processed

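Nuclei were crosslinked with 1% formaldehyde and cut with DpnII, per the labels' protocols. The authors deposited 1 table of boundaries as 5 kb intervals on GRCm38 (the build named in the submitters' processing notes), with a class and a strength score for each. For the caller, its window, the mapper and the number of contacts, nothing was given in the sources used here. Contact matrices were not analysed here. The genome reference is that of another mouse strain than the cells.

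From the table, boundaries in the span and flanks were listed with Python 3.11.15 and pandas 2.3.3. Distances were taken between 5 kb bins, and near means 20 kb or less. Genes were placed by the 5′ end of the GENCODE M21 record between boundary midpoints. MOR names came from RefSeq synonyms, passing over MOR0. Protein identity came from local alignment with BLOSUM62 (Biopython 1.88). Callable sequence is 5 kb bins without undetermined bases. RefSeq starts, used as an alternative for the upstream motifs, lay within 100 bases of the coding start in 165 of 182 entries, while 192 of 227 GENCODE starts lay over 1 kb from it. Intervals are exact binomial at 95%.

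Genes were named by rule: the members beside each inside or end boundary or starting within 5 kb of one, the first and last member, other coding genes inside, the coding gene with the nearest start within 20 kb of each flank boundary, and Olfr73, Olfr74 and Olfr1019. Olfr1034, Olfr1036, Olfr1100, Olfr1134, the closest members of other genes and the MOR families were named after their values were seen. Members and lists were chosen with earlier results of these data known. On simulated data, 200 of 200 widely spaced genes were placed correctly as near a boundary or not. In a sequence of A alone, 50 of 50 planted motifs were found. Both settings are simpler than the cluster, so they check the code and not the rate of stray matches. Alternatives were the Strong class or the highest 25% of scores only, other distances, members, ends, flanks, alignments and motif rules. Receptor subfamilies were not used, since the reference keeps the older names. A conserved stretch of receptor coding sequence is not reported here.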

Additional observations from a re-analysis of the deposited data

How the results depend on the processing

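With 1 pooled list, no replicate could be left out. No paired analysis was possible because there was 1 group and 1 list. Of 28 alternatives to 13 results, 14 gave values within the limits of counting or within 1.5 times, and 14 moved. With Strong boundaries only, the cluster had 2 boundaries, 0.394 per Mb, 6 members near a boundary, a median subdomain of 2335 kb and 5.41% of families on both sides of a boundary. With the highest 25% of scores it had 1 boundary, 0.197 per Mb. Members near a boundary numbered 9 within 5 kb, 13 within 10 kb and 53 within 50 kb. CTCF core matches lay within 10 kb of 0 boundaries inside. With the reversed consensus 0 had one, and with 1 mismatch allowed 5 of 10 had one, at 16.95 matches per Mb in the cluster, against 76.3% of the whole list and 25.2 per Mb genome-wide. The alternative by receptor subfamily was not run. RefSeq starts, Strong boundaries for the share of families and pseudogenes by symbol were chosen after seeing the data. With RefSeq starts 78.45% of the 181 members in that table had TAATNA upstream. The alternatives for OR genes per subdomain, for the Strong share and for identity across boundaries moved none of these values past those limits. The number of boundaries, 10, limits every share of boundaries given for the cluster.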
